A study of Mus musculus with 8 samples.

Results

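Pi16/Dpp4 adventitial fibro-adipogenic progenitors were examined by single-nucleus RNA-seq of mouse gastrocnemius, and 1775 of the 47059 nuclei retained in 4 droplet libraries (3.77%) belonged to them. A nucleus was a member when Pi16, Dpp4, Efemp1 and Adgrd1 together gave at least 3 UMIs (unique molecular identifiers, each counting 1 captured transcript) with at least 2 of the 4 genes detected, when that sum was greater than the sum of the interstitial genes Col6a6, Bmper, Mme and Smoc2, and when the endothelial gene Pecam1, the leukocyte gene Ptprc and the muscle stem cell gene Pax7 were all at 0. The members were therefore chosen by their measured levels of these 11 genes, and differences in those genes are given only as a description. Interstitial progenitors, the class set beside them, were drawn by the mirror of this rule and numbered 4570 nuclei.

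The study asked how gastrocnemius nuclei differed between old and young mice and between treadmill-trained and untrained mice. All mice were wild type per the labels, on a C57BL/6 background per the methods, and no transgene or agent was used in these groups. Old mice were 20 months of age and Young mice 3 months, Running mice were trained on a treadmill for 2 months from 11 months of age, and Sedentary mice were untrained mice of the same age. Each group had 1 library made with the 10x Genomics system and 1 made with a second droplet system, and the number of mice behind a library was not given in the sources used here.

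Fibro-adipogenic progenitors are the resident mesenchymal cells of skeletal muscle that build its connective tissue and can give rise to fibroblasts and adipocytes. The interstitial kind lies between the fibres and contributes to their basement membranes, while the adventitial kind lies in the sheaths around vessels and in the fascia. Adventitial cells carry Pi16, a secreted peptidase inhibitor of unclear substrate, and the surface peptidase Dpp4, and similar cells in fat and skin are regarded as early fibroblast and adipocyte progenitors.

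The promoters of 2 rule genes and of Gfpt2, the marker that the rule did not use, are shown because these genes are the markers by which adventitial nuclei are recognised. The sequences are from RefSeq on the build GRCm38.p6 and run 5′ to 3′ on the strand of the gene, from 250 bases before its RefSeq start. The window of Pi16 lies at chr17:29318632-29318911 on the plus strand, that of Dpp4 at chr2:62412202-62412481 on the minus strand and that of Gfpt2 at chr11:49793905-49794184 on the plus strand. The gene coordinates used elsewhere here start Pi16 at chr17:29317680, so its window lies inside the gene by that annotation. Capitals mark the KLF/SP box CACCC, which reads GGGTG on the other strand, and the EBF palindrome, TCCC and GGGA with any 2 bases between them.
Pi16: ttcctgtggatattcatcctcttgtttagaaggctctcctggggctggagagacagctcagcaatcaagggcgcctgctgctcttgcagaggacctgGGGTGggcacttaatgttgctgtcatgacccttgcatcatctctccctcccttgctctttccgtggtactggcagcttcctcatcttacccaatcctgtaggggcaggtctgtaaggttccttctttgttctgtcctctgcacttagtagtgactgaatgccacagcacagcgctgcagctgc
Dpp4: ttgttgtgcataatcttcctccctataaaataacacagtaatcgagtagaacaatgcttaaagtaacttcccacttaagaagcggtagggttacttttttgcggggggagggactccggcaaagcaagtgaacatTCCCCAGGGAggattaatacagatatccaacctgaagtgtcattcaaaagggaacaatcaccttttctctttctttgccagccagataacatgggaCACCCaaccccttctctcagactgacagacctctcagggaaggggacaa
Gfpt2: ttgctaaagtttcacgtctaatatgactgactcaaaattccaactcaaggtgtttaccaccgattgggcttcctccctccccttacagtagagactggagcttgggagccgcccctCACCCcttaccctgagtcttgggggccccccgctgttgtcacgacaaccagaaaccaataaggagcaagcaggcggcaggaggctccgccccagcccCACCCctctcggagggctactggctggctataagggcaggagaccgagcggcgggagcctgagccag
A KLF/SP box stood in all 3 windows, and Dpp4 alone of the 3 also held the EBF palindrome. Of 27025 promoters of the same length, 57.8% held a KLF/SP box on either strand and 1.02% the EBF palindrome. Among the 801 matched promoters of genes higher in adventitial than interstitial nuclei, the shares were 70.3% and 1.87%, and among the 867 matched promoters of genes lower there they were 70.7% and 1.96%. The cyclic AMP response element TGACGTCA stood in 1.99% of all promoters, 2.62% of the higher and 2.42% of the lower set, and the ROR motif AGGTCA in 17.2%, 15.9% and 18.3%. Each motif was about as frequent in the set of lower genes as in the set of higher genes.

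The 10x libraries held 23327640 to 44389777 UMIs, with a median of 1664 UMIs per nucleus in Sedentary and 2790 to 3001 in the other 3. The Sedentary library stood apart in 1 further respect, since the repeat-like transcript Gm10801 took 0.144% of its UMIs against 0.00854% to 0.0154% elsewhere. Between 30 and 46 cell barcodes were shared by any pair of 10x libraries. Members had median UMIs of 2604 for Old, 3212.5 for Young, 2362 for Running and 1714 for Sedentary, above the medians of interstitial nuclei (2285.5, 2802, 2189 and 1577) in each library but below those of all nuclei in Old and Running. The group of 8 myofibre transcripts made up 0.645% to 1.42% of the UMIs of members, 0.908% to 2.10% of those of interstitial nuclei and 4.79% to 6.55% of those of all nuclei. Because each condition had 1 library per system, differences between conditions carry no p-value, and intervals on levels and shares cover counting error only.

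Progenitor markers were detected in members of each library, although not in every member. Pdgfra, the receptor that defines fibro-adipogenic progenitors, was detected in 49.6% of Old, 46.2% of Young, 51.1% of Running and 26.2% of Sedentary members, against 8.02%, 5.16%, 6.13% and 1.98% of endothelial nuclei of the same libraries. Dcn, a collagen-binding proteoglycan, was detected in 96.2%, 93.1%, 88.1% and 71.8% of members in the same order. All 9 genes of the progenitor marker list were detected, with a summed level of 18645 CPM (UMIs of the genes scaled to a common total over all genes) for Old, 13834 for Young, 13223 for Running and 8686 for Sedentary. Interstitial nuclei had higher sums of this list in each library, at 22128, 18967, 17672 and 11950 CPM in the same order. The myofibre list summed to 10135, 6450, 14059 and 14204 CPM in members, above the progenitor list in Running and Sedentary, and was lower than in interstitial nuclei of each library. Other lists summed to 15.4 to 49.6 CPM (endothelial), 27.5 to 54.1 CPM (immune), 91.3 to 126 CPM (mural) and 2.66 to 13.5 CPM (mesothelial). The tenocyte list summed to 40.9 CPM for Old, 226 for Young, 161 for Running and 40.6 for Sedentary, and 1, 10, 8 and 0 members of those libraries also passed a tenocyte gate. The adipocyte list summed to 271, 101, 64.7 and 433 CPM, and 155, 48, 65 and 16 members held at least 1 UMI of it. Tenocyte genes were thus highest in Young members and adipocyte genes in Sedentary members, which matters for the comparisons of conditions.

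Among themselves the members carried the 4 rule genes in different combinations. Pi16 was detected in 72.9% of Old, 76.8% of Young, 62.2% of Running and 68.9% of Sedentary members, and Dpp4 in 78.2%, 84.5%, 83.5% and 58.3%. Pi16 and Dpp4 occurred together in 54.8%, 63.9%, 50.1% and 39.8% of members, and 3.8%, 2.65%, 4.44% and 12.6% carried neither and entered through the matrix glycoprotein gene Efemp1 and the adhesion receptor gene Adgrd1. Efemp1 was detected in 83.6%, 72.1%, 71.9% and 68.0% of members and Adgrd1 in 74.5%, 81.4%, 83.2% and 69.9%. The Sedentary library, the shallowest, had the lowest share of each of Dpp4, Efemp1 and Adgrd1. The sum of the 4 genes had a median of 7 UMIs and ran from 3 to 70.

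The condition that this sum exceed the interstitial sum removed many nuclei. It left out 283 of 1166 Old, 118 of 594 Young, 96 of 515 Running and 19 of 131 Sedentary nuclei that had otherwise reached the threshold on the 4 genes. A further 68, 24, 14 and 9 nuclei were removed by a UMI of Pecam1, Ptprc or Pax7. The number of members therefore depends on where the line was drawn. Nuclei left out by the interstitial sum carried UMIs of both gene sets, and those with the larger interstitial sum could enter the interstitial class. Whether such nuclei form a range between the classes was not tested.

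Gfpt2, the rate-limiting enzyme of the hexosamine pathway that feeds hyaluronan and glycan synthesis, was the given marker outside the rule. It lies at chr11:49794178-49838613 on the plus strand of GRCm38 and was detected in 70.1% of Old, 63.7% of Young, 68.4% of Running and 57.3% of Sedentary members, against 4.31%, 3.23%, 3.34% and 1.19% of endothelial nuclei. Endothelial nuclei had medians of 1666, 2204, 1636 and 1294 UMIs, lower than the members in each library. The level of Gfpt2 was higher where more of the 4 rule genes were detected. In Old it was 655 CPM in nuclei with 2 of the genes, 811 with 3 and 985 with 4, and in Young 341, 552 and 777 CPM. In Running it was 532, 949 and 1042 CPM, and in Sedentary 634, 726 and 1160 CPM. The order was the same in each of the 4 libraries, although nuclei with more rule genes were also deeper, with a median of 2102 UMIs at 2 genes and 3083 at 4 in Old, and the part of depth in this order was not tested. At the edge of the rule, nuclei with 3 UMIs held 377, 170, 556 and 692 CPM of Gfpt2 and nuclei just outside it with 2 UMIs held 230, 224, 352 and 204 CPM.

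**Figure D1:**
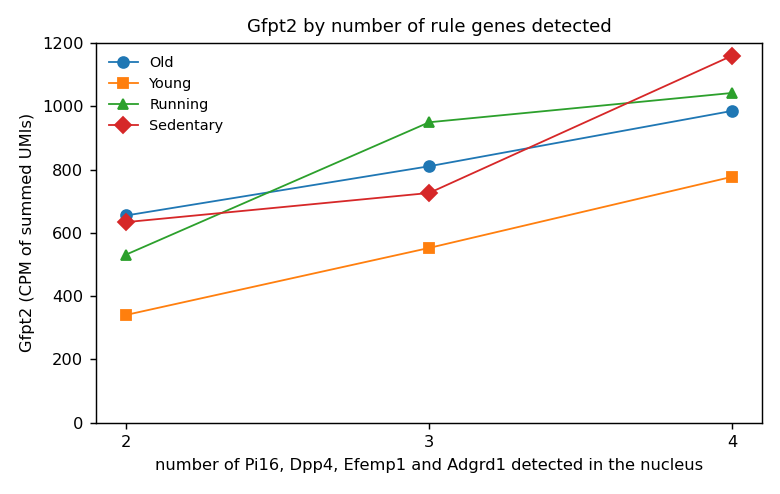
Gfpt2 level (CPM of summed UMIs) in adventitial nuclei with 2, 3 or 4 of the rule genes detected, 1 line per 10x library and no error bars. The line runs from 655 to 985 CPM in Old and from 634 to 1160 CPM in Sedentary, and each line is higher at 4 genes than at 2.

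Adventitial progenitors made up 6.97% of Old nuclei (815 of 11686, 95% exact binomial interval 6.52% to 7.45%), 3.83% of Young nuclei (452 of 11795, 3.49% to 4.19%), 3.12% of Running nuclei (405 of 12991, 2.83% to 3.43%) and 0.973% of Sedentary nuclei (103 of 10587, 0.795% to 1.18%). Old was the highest and Sedentary the lowest, and these intervals did not overlap between any of the 4 libraries. Thinning every nucleus to 1000 UMIs gave 4.27%, 2.27%, 1.80% and 0.627%, in the same order, although the intervals of Young (2.0% to 2.56%) and Running (1.57% to 2.06%) then overlapped. The second droplet system gave another order on few nuclei, with 0.0629% in Old (0.0130% to 0.184%), 0.288% in Young (0.154% to 0.492%), 0.307% in Running (0.164% to 0.525%) and 0.236% in Sedentary (0.113% to 0.434%), so that Old was the lowest there and the intervals of the other 3 overlapped. Interstitial nuclei were ordered in part alike, at 1760 for Old, 1195 for Young, 1339 for Running and 276 for Sedentary. As a share of both progenitor classes together, members were 31.7% for Old (29.9% to 33.5%), 27.4% for Young (25.3% to 29.7%), 23.2% for Running (21.3% to 25.3%) and 27.2% for Sedentary (22.8% to 32.0%). On that scale the intervals of Young and Sedentary overlapped each other, and that of Sedentary also overlapped those of Old and Running. Old lay above Young and Running, but after thinning the intervals of Old (28.1% to 32.8%) and Young (24.0% to 29.7%) overlapped. In the second system members were 9.38% of both classes in Old (1.98% to 25.02%), 37.1% in Young (21.5% to 55.1%), 41.9% in Running (24.5% to 60.9%) and 47.6% in Sedentary (25.7% to 70.2%), again with Old the lowest. The wide gap between Sedentary and the other libraries among all 10x nuclei was not seen on this scale.

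**Figure D2:**
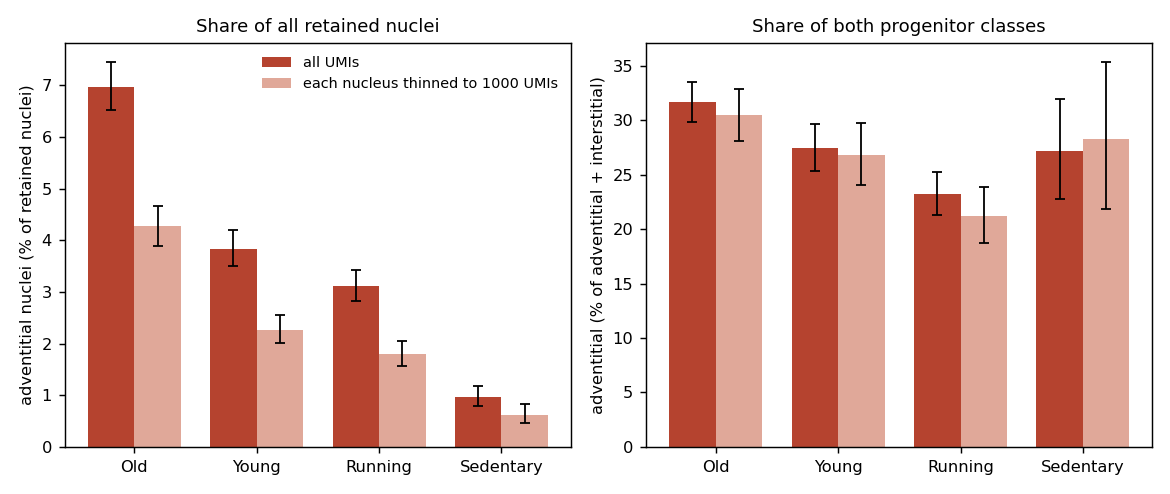
Adventitial nuclei as a percentage of all retained nuclei and of adventitial plus interstitial nuclei in the 4 10x libraries, before and after thinning each nucleus to 1000 UMIs, with 95% exact binomial bars for counting error. Old has 6.97% and Sedentary 0.973% of all nuclei, but 31.7% and 27.2% of the 2 progenitor classes together.

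Adventitial and interstitial progenitors of the same library were then compared across the transcriptome to describe what accompanies the rule genes. UMIs were summed per library and class, the 11 genes of the rules were left out, and edgeR's quasi-likelihood test with library as a block was applied to 13482 genes. At a Benjamini-Hochberg adjusted p below 0.05, 1099 genes were higher in adventitial nuclei (8.15% of those tested) and 1191 lower (8.83%). The classes were drawn by their own marker genes, so genes that vary with those markers differ by the way the classes were drawn, and the test measures only how repeatable a difference was over the 4 libraries, which the labels do not say came from separate animals.

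The genes that were most strongly higher in adventitial nuclei encode a secreted protease, enzymes, semaphorins and neuronal-type adhesion and channel proteins. Adamts16, a secreted metalloprotease, had 97.8 CPM (Old), 165 CPM (Young), 156 CPM (Running) and 45.1 CPM (Sedentary) in adventitial nuclei and 1.81, 1.29, 3.47 and 3.48 CPM in interstitial nuclei. Its log2 fold change was 5.87 (SE 0.24), the largest of the named genes. Cmah, the hydroxylase that makes N-glycolylneuraminic acid, had 335, 374, 240 and 401 CPM against 11.5, 4.38, 6.94 and 15.7 CPM, with a log2 fold change of 5.29. For both genes each adventitial sum was above each interstitial sum. Opcml, a GPI-anchored cell adhesion molecule, had 2439, 3573, 2812 and 2403 CPM against 97.5, 258, 178 and 162 CPM (log2 fold change 4.10, SE 0.14). Gpr1, a receptor for chemerin, followed at 5.0 on the log2 scale, with the vessel-patterning semaphorin Sema3e at 4.62, the carbonic anhydrase-related Car8 at 4.59, the sphingomyelinase Smpd3 at 4.54, the nuclear receptor Rorb at 4.44, the scramblase-family gene Ano3 at 4.40, the vesicle protein gene Sv2c at 4.31, the potassium channel Kcnk5 at 4.05 and Lurap1l at 3.70. Gfpt2 had 846, 610, 876 and 771 CPM in adventitial and 134, 116, 107 and 67.9 CPM in interstitial nuclei, a log2 fold change of 2.82 (SE 0.14, adjusted p = 3.1e-08 by edgeR's quasi-likelihood test).

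The strongest differences in the other direction included matrix, signalling and channel genes. Col15a1, a collagen of basement membrane zones at chr4:47208161-47313167, had 48.7, 59.1, 50.5 and 45.1 CPM in adventitial nuclei of Old, Young, Running and Sedentary and 362, 680, 612 and 376 CPM in interstitial nuclei (log2 fold change -3.28). The classes did not overlap, and adventitial levels were nearly equal in the 4 libraries. The magnesium channel gene Trpm6 stood at -3.74, Pappa, a protease that cleaves IGF-binding proteins, at -3.67, the chemokine gene Cxcl14 at -3.34, the potassium channel Kcnb2 at -2.98, the glutamate receptor Grm8 at -2.81 and the secreted protein gene Crispld2 at -2.79. Cxcl14 had 0 UMIs in Sedentary adventitial nuclei. The noncoding transcripts Gm30075 and 4930474M22Rik stood at -3.82 and -3.12, and the protein-coding genes D630003M21Rik and Gm8369 at -3.39 and -2.93. In Sedentary the difference of 4930474M22Rik was only -0.54, from 4 and 15 UMIs. Frmpd4, a synaptic scaffold gene, averaged -2.85, but in Old its difference was only -0.16, and without the library block it no longer passed the threshold (adjusted p = 0.0760 by edgeR's quasi-likelihood test).

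**Figure D3:**
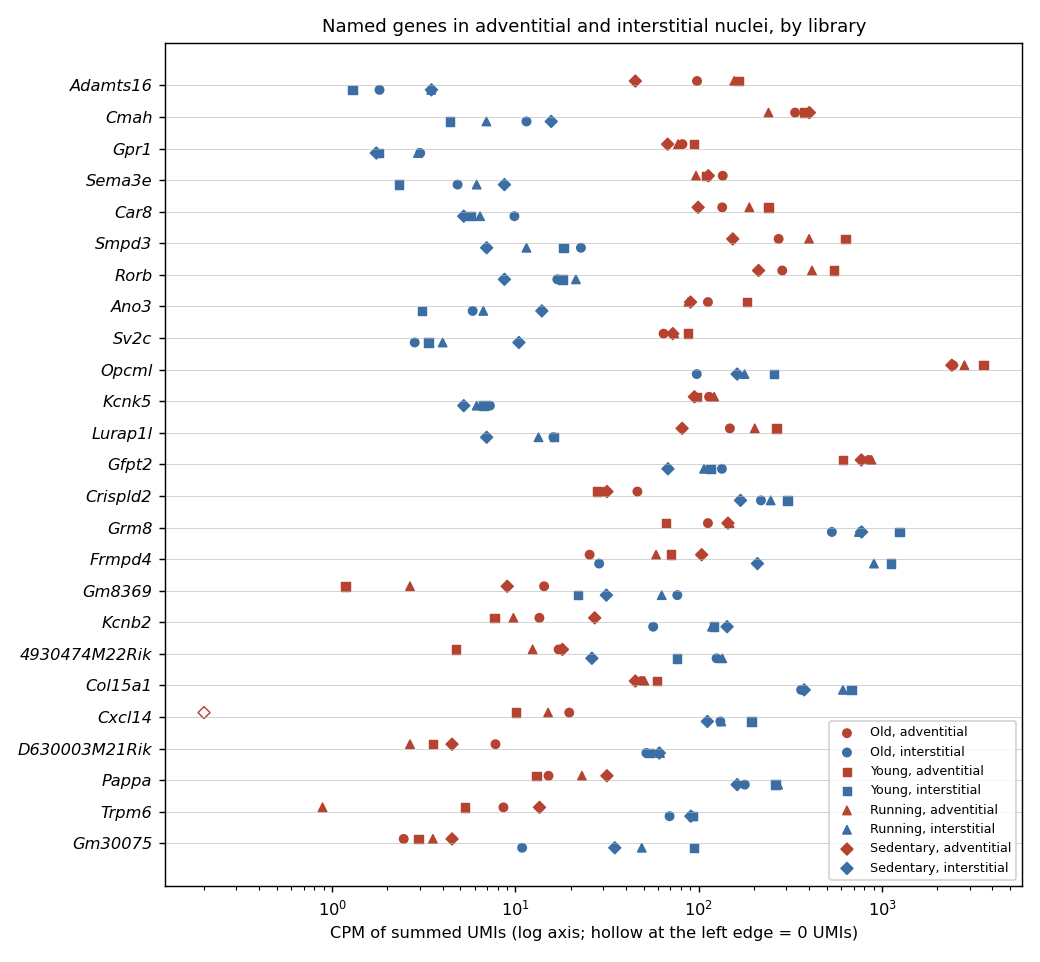
Level of the 12 genes with the largest positive and the 12 with the largest negative fold change, and of Gfpt2, in adventitial (red) and interstitial (blue) nuclei, as CPM of summed UMIs on a log axis with 1 symbol per 10x library and no error bars. Red and blue symbols of the same library lie closest for Frmpd4 in Old (25.4 and 28.6 CPM) and for 4930474M22Rik in Sedentary (18.0 and 26.1 CPM). The hollow symbol marks the 0 UMIs of Cxcl14 in Sedentary.

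A list of 24 genes set as the adventitial programme outside the rule had 21 higher, 0 lower and a median log2 fold change of 2.03, beside -0.02 over all genes tested. This list and the interstitial list below were chosen with earlier results of these data known, so their counts are a description only. Cmah and Opcml, named above, and Gfpt2, Ugdh, Has1 and Prg4 of the hyaluronan list are among its genes. Sema3c, a secreted semaphorin, had 1626, 2119, 2007 and 1348 CPM in adventitial nuclei of Old, Young, Running and Sedentary and 186, 194, 158 and 125 CPM in interstitial nuclei, with a log2 fold change of 3.43. Fn1, the fibronectin gene, had 752, 1037, 757 and 392 CPM against 148, 161, 87.9 and 83.6 CPM (2.66). Both genes were higher in adventitial nuclei of every library by several-fold. Anxa3 stood at 3.05, the stromal glycoprotein gene Cd248 at 2.32, Cd55, which restrains complement on the cell surface, at 2.19, and Limch1 at 1.76. The list of 20 interstitial genes had 0 higher and 16 lower, with a median of -1.25. Among them were Mgp, an inhibitor of calcification, at -2.20, the cortisone reductase gene Hsd11b1 at -2.01, the adhesion molecule Vcam1 at -1.96 and the lipoprotein Apod at -1.88.

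Basement membrane genes were mostly lower in adventitial nuclei, with 12 of 18 lower, 1 higher and a median of -1.09. All 6 collagen IV chains were lower, from -1.24 for Col4a2 to -2.21 for Col4a3, together with the laminin gene Lamb1 (-1.16), the linker gene Nid2 (-1.89) and the heparan sulfate proteoglycan Hspg2 (-1.01). Lama2, the laminin chain of the muscle fibre sheath, had 1243, 1376, 1592 and 1235 CPM in adventitial and 2400, 3076, 2985 and 2237 CPM in interstitial nuclei (-0.96). The exception was the linker gene Nid1, which was higher at 0.63.

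Elastic fibre genes and collagens split. Of 19 elastic fibre genes, 6 were higher and 4 lower, with a median of 0.01. Fbn1, the main microfibril protein, had 1816, 1687, 3385 and 1785 CPM in adventitial and 560, 586, 806 and 393 CPM in interstitial nuclei (1.86). Its partners Emilin2 (2.41), Ltbp1 (1.72), Mfap5 (1.65) and Loxl1 (1.34) and elastin itself, Eln (0.89), were also higher, whereas the crosslinking enzyme Lox (-1.24) and Emilin1 (-1.20) were lower. Of 16 fibrillar and associated collagens, 3 were higher and 5 lower, with a median of -0.25. Col14a1, a fibril-associated collagen of fascia and tendon, had 458, 681, 536 and 388 CPM against 35.7, 121, 62.2 and 34.8 CPM (3.12), and the main fibril genes Col1a2 (-0.11) and Col3a1 (0.06) did not pass the test.

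The hyaluronan, hexosamine and proteoglycan list had 10 of 20 genes higher and 3 lower, with a median of 0.98. Several enzymes of the route to UDP-sugars were higher, with Gfpt2 at 2.82, Gnpnat1 at 2.11, Uap1 at 1.45 and Ugdh, which makes the glucuronic acid donor, at 2.42. Pgm3, which acts between Gnpnat1 and Uap1, stood at 0.27 and Gfpt1, the other enzyme of the first step, at -0.18, and neither passed the test. The hyaluronan synthases Has1 (2.28) and Has2 (1.5) and the large proteoglycan gene Vcan (0.86) were higher as well. The small proteoglycans divided, with Aspn (2.18) and Fmod (2.18) higher and Lum (-1.10), Bgn (-0.86) and Dcn (-0.66) lower. Fmod is also a tenocyte gene, and some members passed the tenocyte gate.

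Wnt signalling genes showed 11 of 31 higher and 5 lower, with a median of 0.26. Among the ligands, Wnt10b (5.46) and Wnt2 (4.54) had the largest differences, followed by Wnt5b (0.93), Wnt9a (0.88) and Wnt11 (0.73), and no ligand was lower. Among modulators, the Dishevelled-binding genes Dact2 (5.20) and Dact1 (1.31) and the secreted antagonists Sfrp4 (2.33) and Sfrp2 (1.69) were higher, while the antagonist Sfrp1 (-1.86) was lower. The related Wnt5a receptors lay on opposite sides, with Ror2 at 1.0 and Ror1 at -1.95. Ror1 had 168, 352, 216 and 90.2 CPM in adventitial and 671, 1099, 779 and 768 CPM in interstitial nuclei.

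BMP and TGF-beta genes had 7 of 33 higher and 10 lower, with a median of -0.08. Ligands differed in direction, with Bmp6 (2.48) and Tgfb2 (1.09) higher and Bmp5 (-2.29), Bmp4 (-1.41), Inhbb (-1.33) and Gdf10 (-1.26) lower. The TGF-beta receptor Tgfbr2 (1.48) and the secreted binding protein Fstl1 (1.5) were higher, and the BMP target Id1 (-1.48) and the feedback inhibitors Smad7 (-0.64) and Smad6 (-0.53) were lower.

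Of 21 adipocyte commitment genes 10 were lower, 4 were higher and 7 did not pass, with a median of -0.62. Pparg, the master regulator of adipocyte formation, stood at -1.0, the lipoprotein lipase Lpl at -1.21, Icam1, a marker of committed preadipocytes, at -1.48 and F3 at -1.25. The preadipocyte gene Dlk1 was also lower (-3.06). The 4 higher genes were all transcription factors, namely Klf4 (1.93), Ebf1 (0.81), Ebf2 (0.81) and Zfp423 (0.42). Ebf2 had 1911, 2788, 2202 and 2146 CPM in adventitial and 1095, 1661, 1187 and 1279 CPM in interstitial nuclei.

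Of 38 fibroblast transcription factors, 11 were higher and 10 lower (median 0.06). Creb5, a cyclic AMP response factor, had 2402, 3690, 2321 and 2006 CPM in adventitial and 556, 686, 351 and 299 CPM in interstitial nuclei, the largest of the positive differences in the list at 2.49. Klf2 (1.27), Osr2 (1.35) and the mesenchymal factor Prrx1 (1.20) were higher, and the Notch target Heyl (-2.72), Meox1 (-2.72), the osteogenic factor Runx2 (-2.04) and Sox9 (-1.44) were lower.

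Axon guidance genes had 13 of 34 higher and 8 lower, with a median of -0.24. Of the class 3 semaphorins, Sema3e (4.62), Sema3c (3.43), Sema3d (2.23), Sema3b (1.79) and Sema3a (1.74) were higher. In Old, Sema3a had 24.6 CPM in adventitial and 19.9 CPM in interstitial nuclei. Without nuclei passing the tenocyte gate, its adventitial UMIs went from 644 to 182 in Young and from 142 to 57 in Running. Of the semaphorin receptors, Nrp1 (-0.75), Nrp2 (-0.81) and Plxnd1 (-1.67) were lower and Plxna1 (1.28) was higher. Plxna2 (-0.37) and Plxna4 (-0.40) did not pass the test. The receptor Robo1 (1.70) and the ephrin Efna5 (2.98) were higher, and its receptor Epha4 (-2.09) was lower.

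Of 25 chemokine and cytokine genes, 9 were higher and 6 lower (median 0.21). The scavenging receptors Ackr2 (3.90) and Ackr3 (1.60), the alarmin Il33 (1.29) and the receptors Il13ra1 (1.85), Il6ra (1.5) and Il4ra (1.48) were higher. Cxcl14 (-3.34), Cxcl12 (-0.68) and the receptors Lifr (-1.47) and Osmr (-1.07) were lower. Complement had 3 of 18 genes higher, namely the surface inhibitor Cd55 (2.19), C7 (1.83) and the central component C3 (0.87), and 4 lower, with a median of 0.01. Among 31 peptidases and inhibitors, 10 were higher and 8 lower (median 0.06), with Adamtsl3 (1.70), the proprotein convertase Pcsk6 (1.69) and Timp2 (1.33) beside Adamts16 and with Adam19 (-1.30) and Adam12 (-1.15) lower.

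Glycolysis and senescence genes, the lists nearest to the theme of the study, were counted last. Of 25 glycolysis and lactate genes, 0 were higher and 4 lower (median -0.18), including Ldha, which makes lactate from pyruvate (-0.58), and the fibre isoforms Eno3 (-0.38), Pfkm (-0.32) and Slc2a4 (-0.63). Ep300, an acetyltransferase that can also lactylate histones, stood at 0.05 and did not pass the test. Myofibre transcripts were also a smaller share of UMIs in adventitial than in interstitial nuclei of every library, and their part in these 4 differences was not tested. Of 16 senescence genes, 4 were higher and 4 lower (median -0.06), with Igfbp5 (1.96) and the nuclear lamina gene Lmnb1 (1.06) higher and Igfbp7 (-1.57) lower. Of 17 immediate early and heat shock genes, 3 were higher and 1 lower (median 0.34).

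**Figure D4:**
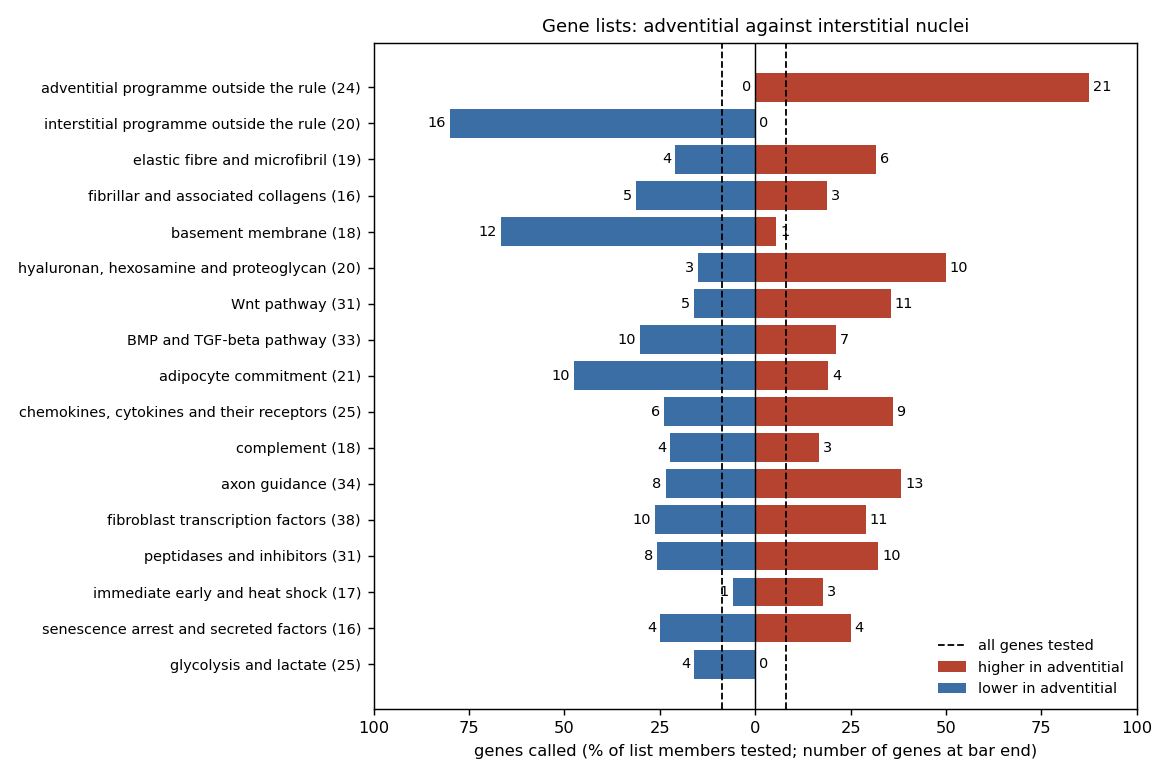
Percentage of the tested genes of each of the 17 lists called higher (red, to the right) or lower (blue, to the left) in adventitial than interstitial nuclei, with the number of tested genes in parentheses, the number called at the bar end and dashed lines at the shares of all genes tested, 8.15% and 8.83%. The adventitial list has 21 genes to the right and 0 to the left, the basement membrane list 1 and 12, and the hyaluronan list 10 and 3.

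The 4 libraries of the second system were not used to draw up the rule and served as a look at the same genes in other samples. The rule found 39 adventitial nuclei among 17744 (3 from Old, 13 from Young, 13 from Running and 10 from Sedentary). Its mirror found 80 interstitial nuclei (29 from Old, 22 from Young, 18 from Running and 11 from Sedentary). Their UMIs were therefore pooled over the 4 libraries, 68370 and 149990 in all, and no test was made. The libraries made up unlike shares of the pools, so differences between libraries are mixed with those between classes, and the intervals do not cover this. Gfpt2 had 190 CPM in the adventitial pool (95% exact Poisson interval 101 to 325) against 3 UMIs in the interstitial pool (4.12 to 58.5 CPM). Opcml had 1711 against 213 CPM and Cmah 570 against 33.3 CPM. Of the 12 named genes higher in the 10x libraries, 10 lay on the same side and 6 had intervals that did not overlap, and of the 12 lower genes 11 lay on the same side and 1 had intervals that did not overlap. The share over all genes was not computed for these pools. Both classes were drawn by the same marker genes as in the 10x libraries, so these counts are a description only. Ttn, a myofibre transcript, reached 11233 and 16668 CPM in these pools.

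Old and Young members were compared to describe the adventitial population at the 2 ages. A gene was counted as past the fold when it had at least 20 UMIs in both sums together, differed by at least 2-fold and had 95% exact Poisson intervals that did not overlap. Of 11991 genes measured, 666 were higher in Old (5.55%) and 247 lower (2.06%), and the median log2 ratio of all genes was 0.08. Of the higher genes, 382 were also past the fold in interstitial nuclei, which is 57.4% of the 666 and 46.5% of the 822 interstitial genes. Of the lower genes, 102 were, which is 41.3% of the 247 and 36.3% of 281.

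Of 17 collagen genes 6 were past the fold lower in Old adventitial nuclei and 0 higher, with a median of -0.62. Col1a1, the main chain of type I collagen at chr11:94936224-94953042, had 110 CPM in Old and 591 CPM in Young, a log2 ratio of -2.43 (-2.63 to -2.23), and its ratio was -2.01 in interstitial nuclei and -1.17 in all other nuclei. Col1a2 had 262 against 933 CPM (-1.83) and Col3a1 468 against 1585 CPM (-1.76), with -1.79 for Col3a1 in interstitial nuclei. The 3 genes were thus lower in Old in both progenitor classes. Eln had 112 against 232 CPM (-1.05) in adventitial nuclei, whereas its ratio in interstitial nuclei was 0.27. Eln was no longer past the fold after thinning to 1000 UMIs (-0.52) or without nuclei holding an adipocyte-list UMI (-0.98). Fbln5 (1.35) and Fbln2 (1.02), which help to assemble elastic fibres, were higher in Old.

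The 10 Young members that passed the tenocyte gate weighed on part of this comparison. Without nuclei passing that gate, Col1a1 stood at -2.26, Col1a2 at -1.64 and Col3a1 at -1.80, but Col12a1 went from -1.95 to -0.16 and Fmod from -3.29 to -0.45. Sema3a had 24.6 CPM in Old and 381 CPM in Young (-3.95), and -2.17 without those nuclei. Postn, a matricellular protein gene, had 4.5 against 92.8 CPM (-4.37), and -4.41 without them. The collagens Col27a1 (-1.04) and Col6a5 (-3.78, from 4 and 38 UMIs) were lower too, but Col27a1 was not past the fold after thinning (-1.32) or without nuclei holding an adipocyte-list UMI (-0.87).

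Several genes of secreted proteins were lower in Old. The median of the Wnt list was -0.35 in adventitial and -0.36 in interstitial nuclei. That of the BMP and TGF-beta list was -0.25 in both classes. Wnt2 had 6.14 against 30.7 CPM (-2.32) and Bmp7 9.42 against 50.8 CPM (-2.43), and the matrix-binding gene Tnfaip6 had 13.1 against 64.4 CPM (-2.30). Wnt5a stood at -1.12. By contrast the level of Gfpt2 (0.47), Pdgfra (0.03) and Sema3c (-0.38) was not past the fold, and 0 of the 24 adventitial genes were higher and 3 lower. Igfbp5, a secreted IGF-binding protein, had 570 CPM in Old and 1374 CPM in Young (-1.27).

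Of 13 complement genes 4 were past the fold higher in Old and 0 lower, with a median of 0.57. C3, at chr17:57203970-57228136, had 826 CPM in Old and 335 CPM in Young, a log2 ratio of 1.30 (1.17 to 1.44), and 2.19 in interstitial nuclei. The classical pathway proteases C1s1, with 369 against 178 CPM (1.05), and C1ra, with 131 against 57.9 CPM (1.18), and the alternative pathway gene Cfb (1.19, from 66 and 20 UMIs) were higher as well. Of 14 senescence genes 0 were higher and 3 lower, of 16 immediate early genes 0 were higher and 3 lower, among them Fos with 12 UMIs in Old and 42 in Young, and of 25 glycolysis genes 2 were higher and 0 lower, with Ldha at -0.32.

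Of 19 adipocyte commitment genes 4 were higher in Old and 1 lower. The list median was 0.30 in adventitial and 0.40 in interstitial nuclei. The higher genes were the fatty acid carriers Fabp4 and Cd36, with Mest (1.39, from 53 and 14 UMIs) and Cebpa (3.38, interval 1.40 to 6.49, from 30 and 2 UMIs), and the lower gene was the phosphodiesterase Pde3b (-1.49, and -0.94 and no longer past the fold without nuclei holding an adipocyte-list UMI). Pparg (-0.43) and Car3 (0.32) were not past the fold. Fabp4 had 183 CPM in Old and 23.1 CPM in Young (2.99), and Cd36 120 against 34.3 CPM (1.81). Adipocyte markers were higher in Old than Young members as a list, at 271 against 101 CPM. The same list had 369 against 125 CPM in interstitial nuclei and 456 against 228 CPM in all retained nuclei. Without members holding any UMI of that list, Fabp4 had 82.8 against 6.86 CPM (3.59) and Cd36 stood at 2.05. The largest ratios upwards rested on 1 or 2 UMIs in Young. They were those of the slow-fibre transcripts Myl2 (5.49, interval 2.96 to 10.8), Myl3 (4.68, 2.78 to 7.75) and Myh7 (4.64, 2.73 to 7.71), of Klhl38 (5.28, 2.74 to 10.6) and of the immunoglobulin gene Igha (5.02, 2.48 to 10.4). Slc24a2 (4.93, 2.38 to 10.3) had 70.5% of its Old UMIs in 1 nucleus, and Prkcz (4.6, 2.03 to 9.94) and Gm44129 (4.51, 1.94 to 9.86) completed the 8. Myh7 had 52.8% of its Old UMIs in 1 nucleus. These wide intervals show that the size of each ratio is poorly fixed. The largest ratios downwards, beside Postn, Sema3a and Col6a5, were those of Dhrs9 (-3.85, -6.99 to -1.81, from 2 and 20 UMIs) and the haemoglobin genes Hba-a1 (-4.02), Hbb-bt (-3.75, -6.11 to -2.06) and Hba-a2 (-3.57). A single nucleus gave 78.2% of the Young UMIs of Hba-a1, 82.1% of those of Hbb-bt and 73.2% of those of Hba-a2. Myofibre, immunoglobulin and haemoglobin transcripts are mainly products of other cells.

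Running and Sedentary members were compared to describe the population after training. The Sedentary sum came from 103 nuclei, so fewer genes could be measured, and of 8327 genes 257 were higher in Running (3.09%) and 254 lower (3.05%), with a median log2 ratio of 0.14. In interstitial nuclei 89 of the higher genes were past the fold as well, which is 34.6% of the 257 and 22.2% of 400 interstitial genes, and 93 of the lower genes, which is 36.6% of the 254 and 48.4% of 192.

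Of 14 collagen genes 5 were past the fold higher in Running adventitial nuclei and 1 lower, with a median of 0.87. Col1a1 had 246 CPM in Running and 54.1 CPM in Sedentary, a log2 ratio of 2.19 (1.36 to 3.16), and 0.43 in interstitial nuclei. Col3a1 had 1156 against 279 CPM (2.05, and 1.28 in interstitial nuclei), Col1a2 449 against 189 CPM (1.25) and Col5a3 441 against 63.1 CPM (2.81, and 1.65 in interstitial nuclei). Each of these ratios was larger in adventitial than interstitial nuclei where both are given, and that difference was not tested. Col6a2 stood at 1.27 and Col8a1 at -1.97. Eln had 373 against 135 CPM (1.46) and the crosslinking gene Loxl3 91.3 against 18.0 CPM (2.34). Without nuclei passing the tenocyte gate Col1a1 stood at 2.03 and Col3a1 at 2.05, and without nuclei holding an adipocyte-list UMI at 2.06 and 2.10.

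C3 had 472 CPM in Running and 176 CPM in Sedentary (1.43) and Serping1, the inhibitor of complement C1, 364 against 131 CPM (1.48). Pdgfra had 361 against 144 CPM (1.32), and Anxa3 854 against 361 CPM (1.24). Prg4, the lubricating proteoglycan of surfaces and fascia, had 50.5 CPM in Running and 0 UMIs in Sedentary. With the Sedentary sum set to a floor of 3 UMIs its log2 ratio was 1.90, which is not a lower limit. Gfpt2 (0.18), Sema3c (0.57), Opcml (0.23) and Fbn1 (0.92) were not past the fold. Of the 24 genes of the adventitial list, 2 were past the fold higher and 0 lower, beside 3.09% and 3.05% of all genes measured. The list median was 0.50, beside 0.14 over all genes, and whether the list shifted as a whole was not tested.

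Of 15 adipocyte commitment genes 5 were past the fold lower in Running and 1 higher. The list median was -0.46 in adventitial and -0.11 in interstitial nuclei. Fabp4 had 17.7 CPM in Running and 397 CPM in Sedentary (-4.48), and 47.7% of its Sedentary UMIs came from 1 nucleus. Pparg had 25.7 against 149 CPM (-2.53), with 42.4% from 1 nucleus, Car3 97.5 against 455 CPM (-2.22) and Cd36 70.9 against 198 CPM (-1.48). Without the nuclei holding an adipocyte-list UMI, 16 of them in Sedentary, Pparg stood at -0.01, Car3 at -0.94 and Pde3b went from -2.50 to 0.54, so that these 3 were no longer past the fold. Fabp4 had 16.3 against 74.0 CPM (-2.18) and Cd36 stood at -1.62 without them. After thinning to 1000 UMIs Pparg (-1.61), Cd36 (-1.38) and Car3 (-0.41) were not past the fold, and of the 4 only Fabp4 was (-3.68).

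The largest ratios in this comparison rested on few UMIs or on repeat-like transcripts. The genes with the highest ratios had 1 or 2 UMIs in Sedentary, namely Ankrd23 (4.23, interval 2.36 to 7.29), Tmem126a (3.84, 1.32 to 9.17), Tbx5 (3.76, 1.24 to 9.09), Trafd1 (3.68, 1.15 to 9.0) and the interferon-induced Ifi27 (3.65, 1.12 to 8.98). 4930404H11Rik (3.54, 1.0 to 8.86), Oasl2 (3.46, 0.92 to 8.79) and Atp6v0a2 (3.43, 0.90 to 8.76) followed. Those with the lowest ratios were Cacna1e (-7.05, -12.4 to -4.44), Dock8 (-6.30, -9.41 to -4.33) and 6 members of a family of near-identical repeat-like transcripts whose reads may be split among copies, Gm10719 (-6.84), Gm10721 (-6.59, -8.91 to -4.97), Gm11168 (-6.43), Gm10718 (-6.20), Gm10800 (-6.02) and Gm21738 (-5.93). Gm10800 had 166 CPM in Running and 10733 CPM in Sedentary members and was also lower in Running among interstitial (-4.22) and other nuclei (-4.16). Of 9 senescence genes and of 7 immediate early genes 0 were past the fold, and of 20 glycolysis genes 0 were higher and 1 lower.

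**Figure D5:**
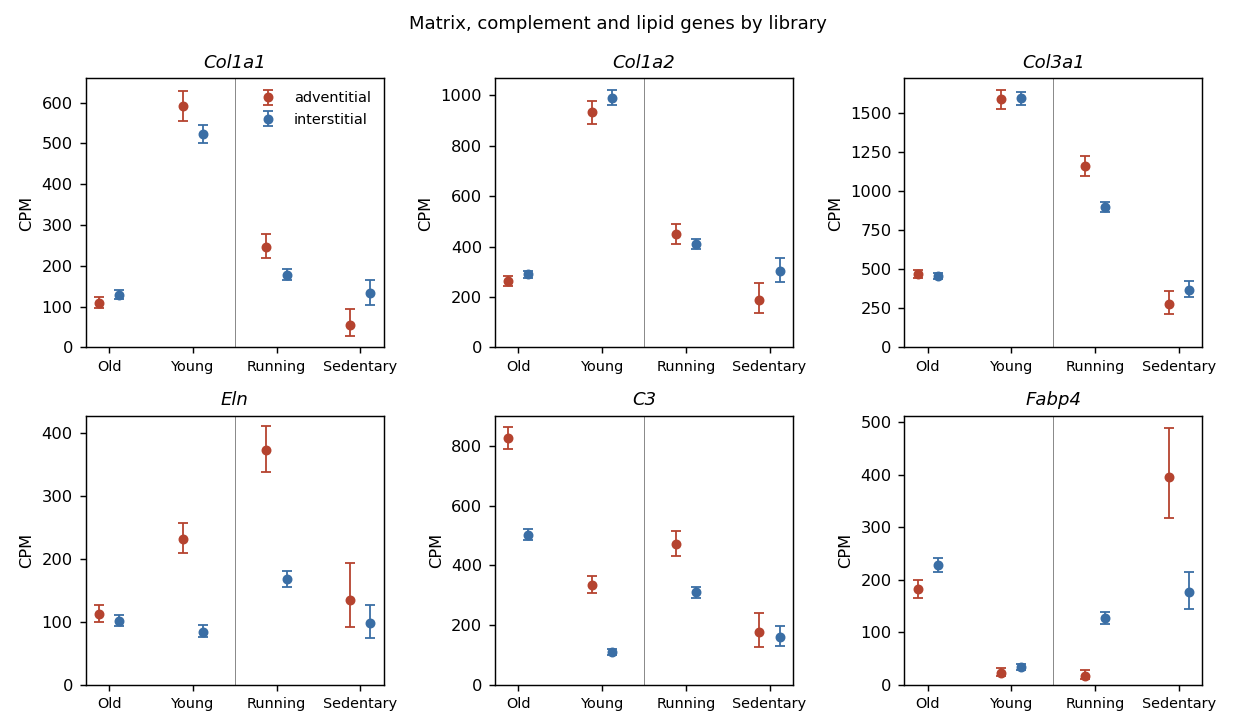
Levels of 6 genes (CPM of summed UMIs) in adventitial (red) and interstitial (blue) nuclei of the 4 10x libraries, with 95% exact Poisson bars for counting error. Adventitial Col1a1 is at 110 CPM in Old and 591 CPM in Young and at 246 CPM in Running and 54.1 CPM in Sedentary, and adventitial C3 is at 826, 335, 472 and 176 CPM in the same libraries.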

How the data were processed

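Nuclei of mouse gastrocnemius were profiled in 8 libraries, 4 per droplet system. Per the labels and the submitters' processing notes, the authors made the deposited count matrices (UMI counts per gene and nucleus, not normalized) with Cell Ranger 6.1.2 and PISA 0.12 on the mouse build mm10, with Seurat 4.1.1 for later steps. The deposited files held 65280 nuclei, of which 64803 were retained (over 200 genes, below 6000 genes and a mitochondrial share below 6%), 47059 of them from the 10x system. The 110 mitochondrial and ribosomal protein symbols were left out of the tests.

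Members and gene lists were chosen with earlier results of these data known. UMIs were summed per library and class and the sums entered the quasi-likelihood test of edgeR 4.0.16 under R 4.3.3 (TMM scaling, filterByExpr, library as a block, Benjamini-Hochberg adjustment), with DESeq2 1.42.0 as an alternative. In sums simulated for the comparison of adventitial with interstitial nuclei over 13482 genes, 81.4% of genes changed by 1 on the log2 scale and 98.0% of those changed by 2 were called. The simulation gave all genes the common dispersion of 0.0124 and each library the same effect in both classes. It held no variation of the class difference between libraries, so these rates do not cover genes with such variation. SE is the standard error from the same fit. Levels are CPM of all UMIs of the class. Condition comparisons used exact Poisson and shares exact binomial intervals at 95%. Named genes were the 12 with the largest difference each way among called genes of the same direction in the 4 libraries and a mean log2 CPM of at least 5, the 8 with the highest and the 8 with the lowest ratio per condition comparison, and members of 17 lists, of which 1 gene is not reported here. Doublets were kept. Scrublet in scanpy 1.11.5 called 42, 20, 20 and 0 members in Old, Young, Running and Sedentary, and dropping the top 6% of nuclei by score was an alternative. Alternatives without nuclei passing the tenocyte gate or holding an adipocyte-list UMI were added after seeing the data. The labels carry no replicate numbers.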

Additional observations from a re-analysis of the deposited data

Results flagged for a closer look

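Between Old and Young, 7 genes were past the fold in opposite directions in adventitial and interstitial nuclei, and the difference between the classes was not tested in any of them. Cntn1, a neural adhesion gene, had 23 UMIs in Old and 0 in Young adventitial nuclei. With the 0 set to the floor of 3 UMIs its log2 ratio was 2.41, which is not a lower limit. In interstitial nuclei Cntn1 stood at -1.80. The potassium channel Kcnk2 stood at 1.32 in adventitial and -1.20 in interstitial nuclei. The other 5 genes were lower in Old adventitial and higher in Old interstitial nuclei. They were the metalloprotease Adamts15 at -1.59 and 1.01, the chemokine Ccl2 at -1.78 and 2.98, the transcript Gm8739 at -1.94 and 1.45, the proteoglycan Spock3 at -1.91 and 1.16, and the tenocyte-list gene Thbs4 at -2.14 and 1.79. Without nuclei passing the tenocyte gate Thbs4 stood at -1.37 in adventitial nuclei.

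Between Running and Sedentary, 2 genes were lower in Running adventitial and higher in Running interstitial nuclei, again with no test of the difference. The basement membrane collagen Col4a6 stood at -2.21 and 1.69, and the channel-interacting protein gene Kcnip4 at -1.64 and 1.09.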

How the results depend on the processing

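Adventitial against interstitial calls numbered 2290. Without the library block they numbered 728, and without 1 library in turn they ranged from 1499 (without Old) to 2142 (without Sedentary). DESeq2 called 1655, no filter on low counts 2749 and thinning to 1000 UMIs 1564. The calls that could be tested again had the same sign in all settings except for 1 of 2240 under the stricter gate of 5 UMIs and 3 genes, 5 of 2234 with Pi16 and Dpp4 both required, and 1 of 2289 without tenocyte-gate nuclei (2239, 2229 and 2288 had it). Of the single-gene values, 374 kept their side of the threshold and 1, Frmpd4 without the block, did not. No paired analysis was possible between conditions because the labels carry no replicate numbers and the libraries of the second system held 3 to 13 members each, too few to sum per library.

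Old against Young past the fold went from 666 higher and 247 lower to 257 and 139 after thinning, and to 490 lower at 1.5-fold. Running against Sedentary went from 257 and 254 to 128 and 115 under the stricter gate and to 112 and 78 after thinning. Fewer UMIs remained in these settings. Over genes and settings together, 7 ratios of named genes in the age and 16 in the training comparison moved beyond their counting interval, and 90 and 86 did not. Without nuclei passing the tenocyte gate the counts were 674 and 227 for age and 260 and 257 for training, and without nuclei holding an adipocyte-list UMI 579 and 231, and 214 and 171. At 5 UMIs and 3 genes members were 4.62%, 2.75%, 1.91% and 0.340% of nuclei in Old, Young, Running and Sedentary. Thinning before the gate gave 4.27%, 2.27%, 1.80% and 0.627%, and at 2 UMIs and 2 genes Old had 7.70%, Running 3.46% and Sedentary 1.37%. Of both progenitor classes, members were 40.6% in Old, 33.2% in Young and 26.1% in Running at 5 UMIs and 3 genes, and 21.2% in Running after thinning. The order of the 10x libraries among all nuclei was the same under each gate.

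The comparison with tenocyte nuclei was not run because only 3 of 4 libraries held 20 of them, and no library of the second system held 20 nuclei of both classes. The training comparison rests on 103 Sedentary members, with single nuclei that hold 47.7% of the Sedentary UMIs of Fabp4 and 51.6% of those of Dock8.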
